A study of Mus musculus with 22 samples.

Results

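Myl7, Actc1, Nkx2-5, Gata6 and Tnni1 are genes of the early heart, measured here in dissections of the anterior neural tube of mouse embryos. They were chosen as the probes that carry these gene symbols in the annotation of a 1-colour CodeLink UniSet 10K oligonucleotide array. Each gene had 1 probe, so 5 of the 10500 probes and 5 of the 9230 genes with a single-symbol probe are described, and no second probe of the same gene was there to check any of them. All 5 probes passed the filter on dim probes, which left 7833 probes to test.

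All embryos came from Folr2-/- dams, which lack a folate-binding membrane protein, so the controls carry the same deletion as the exposed embryos. Dams received intraperitoneal sodium arsenate at 9.6 mg As per kg, or water at 10 µL per g, at hour 12 of gestational day (GD) 7 and again at hour 12 of GD 8. The groups were arsenic GD8:15 (4 arrays) and control GD8:15 (4), taken 3 h after the second injection, arsenic GD9:00 (3) and control GD9:00 (4) at 12 h, and arsenic GD9:12 (4) and control GD9:12 (3) at 24 h. The question the labels give is how arsenic alters expression in the neural tube while it closes. RNA was amplified before it was labelled, and the labels do not tie the 22 arrays to separate dams, so p-values measure only the spread between these samples, which may in part be technical.

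The heart tube forms beneath the head folds at the stages sampled, next to the foregut and the ventral side of the anterior neural tube. Myl7 is the regulatory myosin light chain of the atrium, made throughout the early heart tube, and Actc1 is the actin of the cardiac sarcomere, also made in embryonic skeletal muscle. Tnni1 is the slow skeletal troponin I, which the embryonic heart uses before it turns on its own form. Nkx2-5 and Gata6 are transcription factors of cardiac progenitors. Both are also made in pharyngeal or gut endoderm, so neither marks cardiomyocytes alone. In a bulk sample of this kind, fewer cells of a type and less RNA per cell cannot be told apart.

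Myl7 lies at chr11:5896637-5898782 and Actc1 at chr2:114047282-114052875, both on the minus strand of GRCm38.p6. Their 250 bases before the RefSeq start site are shown because these genes had the 2 largest differences of the 5 and moved together within groups, as described later. The capitals mark the CArG box, the sequence bound by serum response factor, which a search of both strands found 61 to 52 bases before the start of Myl7 and 47 to 38 bases before the start of Actc1.
Myl7 promoter, chr11:5898783-5899032, minus strand: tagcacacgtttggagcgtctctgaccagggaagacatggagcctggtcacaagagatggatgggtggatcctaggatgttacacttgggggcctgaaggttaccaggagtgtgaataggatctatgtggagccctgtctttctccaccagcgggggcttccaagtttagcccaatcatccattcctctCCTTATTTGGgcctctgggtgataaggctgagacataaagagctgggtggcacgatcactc
Actc1 promoter, chr2:114052876-114053125, minus strand: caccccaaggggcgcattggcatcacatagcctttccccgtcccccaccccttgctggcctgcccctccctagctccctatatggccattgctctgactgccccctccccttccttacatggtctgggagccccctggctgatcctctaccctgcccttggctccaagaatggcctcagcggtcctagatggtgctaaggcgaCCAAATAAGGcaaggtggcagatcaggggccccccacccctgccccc
A CArG box was present in 1.47% of 32851 RefSeq promoters cut to the same length. The Myl7 window also held GATAA, the core of a GATA factor site, which 22.6% of promoters hold, and AAGTG on the other strand, the core of an NKX2-5 site, which 40.7% hold. The Actc1 window held neither of them, and no MEF2 site, which 2.92% of promoters hold, was in either window. Of the other members looked up, the Nkx2-5 window (gene at chr17:26838664-26844988) held none of the 4 motifs, and Tnni1 (chr1:135783033-135810989) held AAGTG before the second of the 2 starts looked up only. The windows of these 2 genes lay inside the gene spans, so the bases before the outer end of each span were not searched. All motifs named are matches of letters in the windows searched, and the arrays hold no measurement of binding.

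Deposited intensities ran from 56 to 85027, and array medians from 123 to 291. After quantile normalisation the log2 values of 2 arrays of a group correlated across probes at a median r of 0.948 (range 0.866 to 0.979). Arsenic GD8:15 replicate 3 stood farthest from its group, with a mean r of 0.889. The sample titles end in codes of 4 series, which no label explains and which are spread unevenly over the groups. All 4 arsenic GD8:15 arrays and 2 of the 4 control GD8:15 arrays were of series D, every GD9:00 array was of series C, and results that move with the series are given with it. Runs of dim probes along the probe number covered up to 10.0% of an array (control GD9:00 replicate 2), and 0 values of the 5 genes lay in them. Folr2, the deleted gene, had group means from 6.85 to 7.15 on the log2 scale, and its highest value was 7.47 on arsenic GD9:12 replicate 4, at percentile 47.1 of that array.

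The 5 probes differed in brightness across the whole array. Averaged over all 22 arrays, Myl7 stood at percentile 95.9 and Actc1 at percentile 96.9 of mean intensity. Nkx2-5, Gata6 and Tnni1 stood at percentiles 51.6, 52.5 and 54.8. On single arrays Nkx2-5 read as low as percentile 5.59 (arsenic GD8:15 replicate 1). Levels of different probes are not set against each other, because probes differ in how well they bind their target.

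The label of heart tissue was set beside 67 other cardiac genes, of which 51 were on the array and 31 passed the filter. The other 20 were dim, at percentiles 0.238 to 21.1. They include the defining proteins of the cardiomyocyte sarcomere, namely the cardiac myosin heavy chains Myh6 and Myh7, cardiac troponin T Tnnt2, cardiac troponin C Tnnc1, cardiac troponin I Tnni3 and myosin-binding protein C Mybpc3. Their group means lay between 6.81 and 7.33 on the log2 scale. Because probes differ in how well they bind their target, a dim probe does not show that a transcript was absent. The 5 genes are called by their names here, and whether heart tissue was carried along with the neural tube was not tested.

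**Figure D1:**
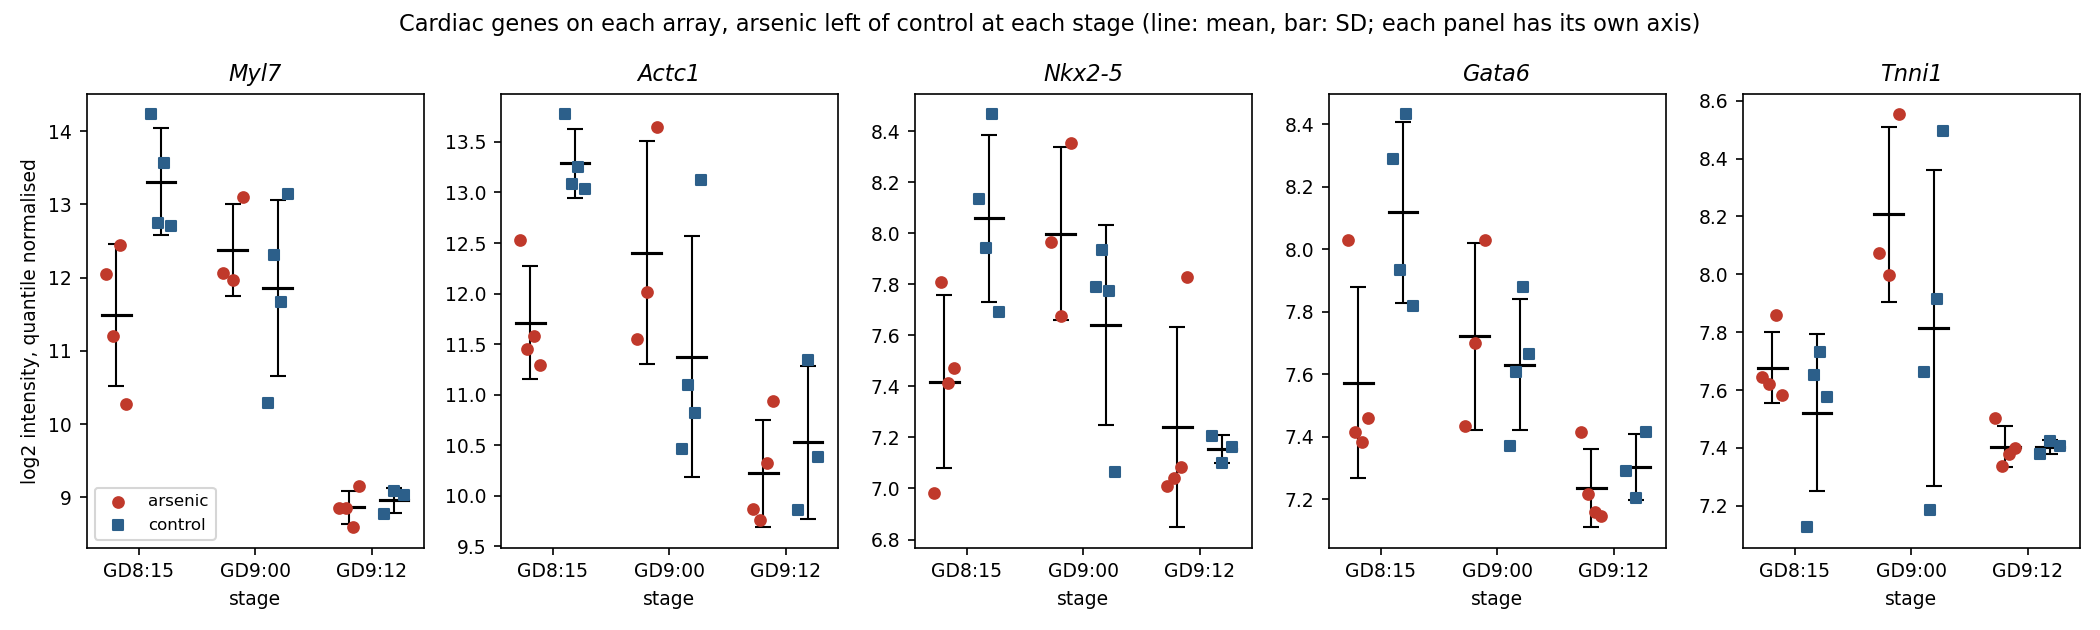
Quantile-normalised log2 intensity of Myl7, Actc1, Nkx2-5, Gata6 and Tnni1 on each of the 22 arrays, by stage, with arsenic arrays (red circles) left of control arrays (blue squares); lines are group means, bars are SDs, and each panel has its own axis. All 7 Myl7 values at GD9:12 lie at or under 9.15, and the other 15 lie at or above 10.27.

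Myl7 was the gene of the widest range. On the log2 scale it read 12.04, 11.20, 12.45 and 10.27 on the arsenic GD8:15 arrays, against 14.23, 12.74, 13.56 and 12.71 on the control GD8:15 arrays. At GD9:00 it read 12.07, 11.97 and 13.10 on the arsenic arrays, against 10.29, 12.32, 11.67 and 13.14 on the control arrays. At GD9:12 it read 8.86, 8.85, 8.59 and 9.15 on the arsenic arrays, against 8.77, 9.08 and 9.04 on the control arrays. The GD8:15 groups did not overlap, the GD9:00 groups did, and the GD9:12 groups lay within a narrow band below every earlier array. In the authors' deposited units Myl7 ran from 1124 to 3722 on the arsenic GD8:15 arrays and from 5016 to 15618 on the control GD8:15 arrays, and from 517 to 760 on the arsenic GD9:12 arrays and 620 to 757 on the control GD9:12 arrays. The order of its group means was control GD8:15, arsenic GD9:00, control GD9:00, arsenic GD8:15, control GD9:12 and arsenic GD9:12, and the one step between neighbours without overlap was that of 2.53 log2 units from arsenic GD8:15 to control GD9:12.

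Actc1, the sarcomeric actin, was lowest on arsenic GD9:12 replicate 2, at 9.76. It read 12.53, 11.45, 11.58 and 11.29 on the arsenic GD8:15 arrays, against 13.78, 13.08, 13.25 and 13.04 on the control GD8:15 arrays. It read 11.55, 12.01 and 13.65 on the arsenic GD9:00 arrays, against 10.46, 11.09, 10.82 and 13.12 on the control GD9:00 arrays. It read 9.87, 9.76, 10.32 and 10.93 on the arsenic GD9:12 arrays, against 9.86, 11.35 and 10.38 on the control GD9:12 arrays. The GD8:15 groups again did not overlap. At GD9:00, 1 array of each group, arsenic replicate 3 and control replicate 4, lay well above the rest of its group, and the same 2 arrays were the highest of their groups for Myl7. All neighbours in the order of group means overlapped, from control GD8:15 at 13.29 ± 0.34 (SD, n = 4) to arsenic GD9:12 at 10.22 ± 0.53 (SD, n = 4).

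Tnni1, the embryonic troponin I, stayed within a narrower range. It read 7.64, 7.62, 7.86 and 7.58 on the arsenic GD8:15 arrays, against 7.13, 7.65, 7.73 and 7.58 on the control GD8:15 arrays. It read 8.07, 8.00 and 8.55 on the arsenic GD9:00 arrays, against 7.66, 7.19, 7.91 and 8.50 on the control GD9:00 arrays. It read 7.50, 7.34, 7.38 and 7.40 on the arsenic GD9:12 arrays, against 7.38, 7.42 and 7.41 on the control GD9:12 arrays. Its groups overlapped at every stage, and its highest group mean was that of arsenic GD9:00 (8.21 ± 0.30 SD, n = 3), not of GD8:15.

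Nkx2-5 read 6.98, 7.81, 7.41 and 7.47 on the arsenic GD8:15 arrays, against 8.13, 7.94, 8.47 and 7.69 on the control GD8:15 arrays. It read 7.97, 7.68 and 8.35 on the arsenic GD9:00 arrays, against 7.79, 7.93, 7.77 and 7.06 on the control GD9:00 arrays. It read 7.01, 7.04, 7.09 and 7.83 on the arsenic GD9:12 arrays, against 7.21, 7.10 and 7.16 on the control GD9:12 arrays. Of this cardiac homeobox factor, 3 of 4 arsenic GD8:15 arrays lay below all controls of that stage, and 1 arsenic GD9:12 array stood well above its group.

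Gata6, a zinc finger factor encoded at chr18:11052510-11085636, read 8.03, 7.42, 7.38 and 7.46 on the arsenic GD8:15 arrays, against 8.29, 7.94, 8.43 and 7.82 on the control GD8:15 arrays. It read 7.43, 7.70 and 8.03 on the arsenic GD9:00 arrays, against 7.37, 7.61, 7.88 and 7.66 on the control GD9:00 arrays. It read 7.42, 7.22, 7.16 and 7.15 on the arsenic GD9:12 arrays, against 7.29, 7.21 and 7.42 on the control GD9:12 arrays. At GD8:15, 3 of 4 arsenic arrays lay below all controls, and at the later stages the groups overlapped. For Nkx2-5 and Gata6 every pair of neighbours in the order of group means overlapped, and control GD8:15 stood at the top of both orders, at 8.06 ± 0.33 and 8.12 ± 0.29 (SD, n = 4 each).

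At GD8:15, 3 h after the second injection, 4 of the 5 genes averaged lower in arsenic embryos than in controls and 0 passed the test. Myl7 had a ratio of control to arsenic of 3.53 and Actc1 of 2.98, with 4 of 4 arsenic arrays below every control for both. The differences were -1.82 ± 0.52 for Myl7 and -1.57 ± 0.53 for Actc1 (SE, 4 arrays against 4; limma adjusted p = 0.399 and 0.518). Nkx2-5 differed by -0.64 ± 0.23 and Gata6 by -0.55 ± 0.17 (SE; limma adjusted p = 0.564 and 0.458), and Tnni1 by 0.16 ± 0.20 (SE; adjusted p = 0.977). limma called 0 of the 7833 probes at this stage (0%), with a lowest adjusted p of 0.0513. At an unadjusted p under 0.05, 4 of the 5 genes and 7.29% of all probes passed. Groups that did not overlap, arsenic lower, were seen for 2 of the 5 genes and 1.93% of all probes. A drop of at least 1 log2 unit was seen for 2 of the 5 genes and 0.383% of all probes.

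The size of these differences moved with the series of the title codes. The control arrays outside series D, replicates 1 and 3, had the highest Myl7 values, 14.23 and 13.56, against 12.74 and 12.71 for the controls of series D. Within series D, with 4 arsenic and 2 control arrays, Myl7 differed by -1.23, Actc1 by -1.35, Nkx2-5 by -0.40, Gata6 by -0.30 and Tnni1 by 0.06 (limma adjusted p = 1.0 for each). Leaving out each array in turn gave Myl7 differences between -2.14 and -1.41 and Actc1 differences between -1.85 and -1.41.

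**Figure D2:**
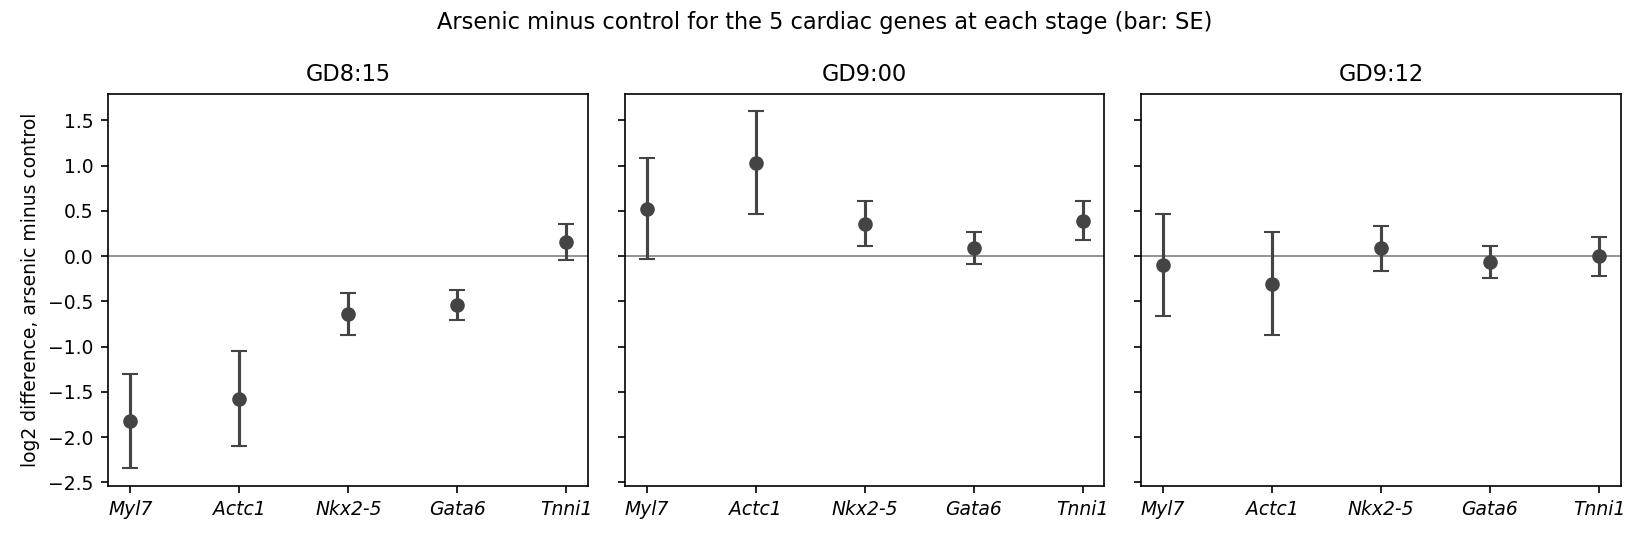
Difference in log2 intensity, arsenic minus control, of the 5 cardiac genes at GD8:15, GD9:00 and GD9:12; points are limma estimates from 22 arrays and bars are SEs. Myl7 (-1.82) and Actc1 (-1.57) lie lowest at GD8:15, all 5 points lie above 0 at GD9:00, and the GD9:12 points lie between -0.31 and 0.08.

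Other markers differed at GD8:15 as well, and their part in the result was not tested. Of the 31 other cardiac genes, 22 averaged lower and 9 higher, with a median difference of -0.05, where 49.9% of all probes were lower and their median was 0.0005. Myocd, a cofactor of serum response factor in heart and smooth muscle, differed by -0.33 ± 0.13 (SE; limma adjusted p = 0.605), with 4 of 4 arsenic arrays below every control. The other cardiac transcription factors went both ways. Irx3 differed by -0.53 and Tbx1 by -0.24, while Gata5 differed by 0.36 and Gata4 by 0.18 (limma adjusted p from 0.857 to 0.992). The thick filament genes Myl3, Myl4 and Smyd1 were all lower, by at most 0.25, as were the thin filament genes Acta1, Nebl and Tpm1, by at most 0.24. The calcium handling genes split, with sarcolipin (Sln) 0.25 higher and the ryanodine receptor Ryr2 0.21 lower. Of 7 Z-disc and intercalated disc genes 5 were lower, with the chaperone Cryab at -0.24, and the membrane protein Popdc2 was 0.28 higher, with 3 of 4 arsenic arrays above every control. The mean of the 31 genes ran from 7.98 to 8.11 on arsenic arrays and from 8.02 to 8.18 on control arrays. Of the 20 dim cardiac genes, 9 were lower and 11 higher.

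The other muscle lists are not limited to muscle outside the heart. Of 5 smooth muscle genes 4 were lower, with calponin (Cnn1) at -1.17 ± 0.32 (SE; limma adjusted p = 0.399) and 4 of 4 arsenic arrays below every control. The summed intensity of the list ran from 2081 to 5149 on arsenic arrays and from 2362 to 4740 on control arrays. Of 6 muscle energy enzymes 5 were lower, and muscle phosphoglycerate mutase (Pgam2) differed by -0.95 ± 0.18 (SE; adjusted p = 0.0733). The 1 that was higher, the cytochrome c oxidase subunit of heart and skeletal muscle Cox6a2, differed by 0.86 ± 0.27 (SE; adjusted p = 0.504), with 3 of 4 arsenic arrays above every control. Skeletal muscle genes were lower in 7 of 8 cases, led by the embryonic acetylcholine receptor subunit Chrng at -0.44 ± 0.13 (SE; adjusted p = 0.458), and their summed intensity ran from 1652 to 2251 on arsenic arrays and from 1968 to 3631 on control arrays. The mean of 15 neural tube markers ran from 8.28 to 8.59 on arsenic arrays and from 8.61 to 8.71 on control arrays, so these groups did not overlap either. Among them the midbrain factor En1 differed by -1.58 ± 0.39 and the progenitor factor Sox2 by -0.91 ± 0.31 (SE; adjusted p = 0.295 and 0.526). Of the 15 genes 9 were lower and 6 higher, the higher ones led by Pax3 by 0.35 and Zic2 by 0.34, both factors of the dorsal neural tube. Of the paraxial and head mesoderm genes 6 of 9 were lower, of the endoderm genes 8 of 13, of the surface ectoderm genes 4 of 5, of the endothelial genes 2 of 8 and of the blood genes 2 of 6, with embryonic globin Hba-x at 1.06 ± 0.29 (SE; adjusted p = 0.399). Xist, expressed in female cells, averaged 8.43 on arsenic arrays and 7.06 on control arrays, with 4 of 4 arsenic arrays higher, and the Y-linked Eif2s3y differed by -0.50 with 4 of 4 lower. The Y-linked Uty and Kdm5d differed by -0.13 and -0.11, and their groups overlapped. The sex of each embryo is not given in the labels used here.

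At GD9:00, 12 h after the second injection, all 5 genes averaged higher in arsenic embryos and 0 passed the test. The differences were 0.53 ± 0.56 for Myl7, 1.03 ± 0.57 for Actc1 and 0.39 ± 0.22 for Tnni1 (SE, 3 arrays against 4; limma adjusted p = 0.732, 0.467 and 0.465). Nkx2-5 differed by 0.36 ± 0.25 and Gata6 by 0.09 ± 0.18 (SE; adjusted p = 0.579 and 0.866). limma called 0 of 7833 probes (0%), and 12.6% of all probes but 0 of the 5 genes had an unadjusted p under 0.05. Differences above 0 were found for 51% of all probes. Single arrays moved these values: Actc1 differed by 0.41 without arsenic replicate 3 and by 1.61 without control replicate 4, and Myl7 by 0.004 without control replicate 1.

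The remaining markers at GD9:00 were mixed. The other cardiac genes were higher in 16 and lower in 15 of 31 cases, with a median of 0.002. The gap junction gene Gja1 had the lowest p among the structural ones, at 1.01 ± 0.37 (SE; limma adjusted p = 0.307), and Myocd differed by 0.29 ± 0.14 (SE; adjusted p = 0.390). Of the 12 cardiac transcription factors and cofactors 5 were higher and 7 lower, with Isl1, a factor of heart progenitors and motor neurons, at -0.34 ± 0.14 (SE; adjusted p = 0.358) and Srf, serum response factor, at -0.20. All 5 smooth muscle genes were higher, with Tagln at 1.65 ± 0.68 and 3 of 3 arsenic arrays above every control, and Cnn1 at 1.09 ± 0.34 (SE; adjusted p = 0.353 and 0.262). Their summed intensity ran from 3270 to 5275 on arsenic arrays and from 1511 to 3432 on control arrays. Of the skeletal muscle genes 6 of 8 and of the muscle energy enzymes 5 of 6 were higher. Neural tube markers were higher in 5 of 15 cases, with array means from 8.64 to 8.82 in arsenic and 8.63 to 8.95 in control. Mesoderm genes were higher in 4 of 9 cases, endoderm genes in 7 of 13, endothelial genes in 6 of 8, blood genes in 4 of 6 and surface ectoderm genes in 3 of 5. Xist differed by 2.53 ± 0.72 (SE; adjusted p = 0.245), with 3 of 3 arsenic arrays higher. The Y-linked genes went both ways, Eif2s3y by -0.41, Kdm5d by 0.91 and Uty by 0.30 (limma adjusted p = 0.366, 0.490 and 0.366). Whether any of them bears on the cardiac values was not tested.

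At GD9:12, 24 h after the second injection, no gene of the 5 differed by more than 0.31 log2 units. Myl7 differed by -0.10 ± 0.56, Actc1 by -0.31 ± 0.57, Nkx2-5 by 0.08 ± 0.25, Gata6 by -0.07 ± 0.18 and Tnni1 by 0.00 ± 0.22 (SE, 4 arrays against 3; limma adjusted p = 1.0 for each). limma called 0 of 7833 probes (0%), and 1.28% of probes had an unadjusted p under 0.05, with 0 of the 5 genes among them. Of the 31 other cardiac genes, 14 were higher and 17 lower, with a median of -0.01. Xist averaged lower in arsenic embryos here, by -1.34 ± 0.72 (SE), and its groups overlapped. The Y-linked Eif2s3y, Uty and Kdm5d differed by 0.38, 0.12 and -0.64. Whether the sex genes bear on the cardiac values was not tested.

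The arsenic difference itself was compared between stages, over 22 arrays. At GD9:00 it was higher than at GD8:15 for all 5 genes, by 2.34 ± 0.76 for Myl7, 2.61 ± 0.77 for Actc1, 1.00 ± 0.34 for Nkx2-5, 0.64 ± 0.24 for Gata6 and 0.24 ± 0.29 for Tnni1 (SE). None passed (limma adjusted p = 0.445, 0.393, 0.450, 0.527 and 0.887), and limma called 0 of 7833 probes (0%). At an unadjusted p under 0.05, 4 of the 5 genes and 8.18% of all probes passed. The effect at GD9:12 minus that at GD9:00 was -0.62 for Myl7 and -1.34 for Actc1, with 0 probes called (0%). None of the 5 genes but 6.4% of all probes had an unadjusted p under 0.05. The effect at GD9:12 minus that at GD8:15 was 1.72 for Myl7 and 1.27 for Actc1, again with 0 probes called (0%). Here Myl7 and Nkx2-5 alone of the 5 had an unadjusted limma p under 0.05 (0.037 and 0.046), against 4.15% of all probes.

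Between stages of the controls, calls were made. In control GD9:12 embryos, set against control GD8:15 embryos, 4 of the 5 genes fell. Myl7 fell by 4.35 log2 units, a ratio of GD8:15 to GD9:12 of 20.3, and Actc1 fell by 2.76, a ratio of 6.77. Nkx2-5 fell by 0.90 and Gata6 by 0.81, ratios of 1.87 and 1.76, and for these 4 genes all 3 GD9:12 arrays lay below all 4 GD8:15 arrays. The differences were -4.35 ± 0.56, -2.76 ± 0.57, -0.90 ± 0.25 and -0.81 ± 0.18 (SE; limma adjusted p = 0.0002, 0.0057, 0.0312 and 0.0086). Tnni1 differed by -0.12 ± 0.22 (SE; adjusted p = 0.796). The Nkx2-5 and Gata6 means in control GD9:12, 7.16 and 7.30, lay within the 6.81 to 7.33 of the dim cardiac genes. Their ratios therefore rest on values near the dim end of the array. Of all 7833 probes, 3.94% were called lower, and 17.1% had all GD9:12 arrays below all GD8:15 arrays.

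The comparison was also fitted with the title code series as a block, which rests on the 1 control GD8:15 array and the 2 control GD9:12 arrays of series C. Myl7 stayed called at -4.50 (limma adjusted p = 0.0449). Actc1 at -2.39, Nkx2-5 at -1.34 and Gata6 at -1.12 did not pass (adjusted p = 0.309, 0.149 and 0.0801). The Nkx2-5 and Gata6 differences were larger in size with the block than without it, with fewer arrays behind them. The series C control GD8:15 array was the highest of its group for both genes, at 8.47 and 8.43. Whether the values follow the series was not tested. The Nkx2-5 call was also lost without any one of 6 of the 7 arrays, all but control GD8:15 replicate 4, with adjusted p from 0.0508 to 0.108, and under the scaling of the authors (adjusted p = 0.0757). Leaving out each array in turn gave Myl7 differences between -4.55 and -4.04 and Actc1 differences between -3.17 and -2.42, and both stayed called.

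**Figure D3:**
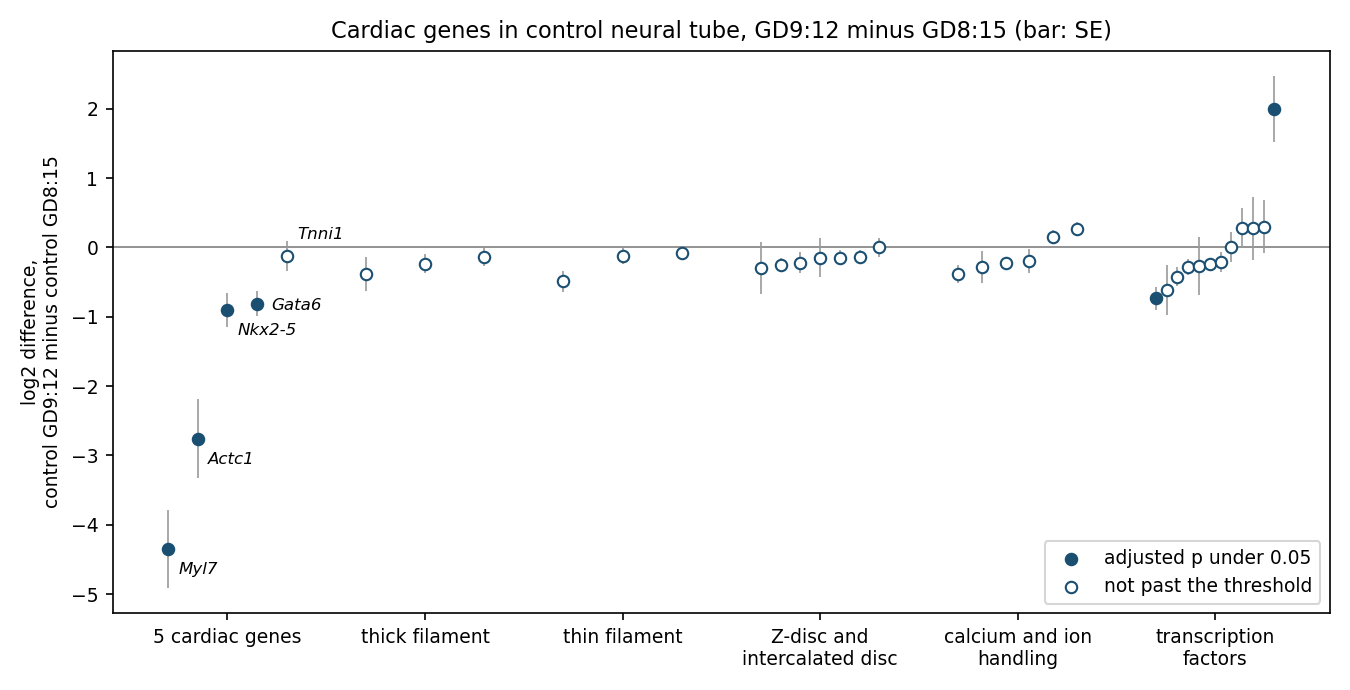
Difference in log2 intensity, control GD9:12 minus control GD8:15, of the 5 cardiac genes and of 31 other cardiac genes grouped by role; points are limma estimates, bars are SEs, and filled points have an adjusted p under 0.05. Myl7 (-4.35) and Actc1 (-2.76) lie far below the other cardiac genes, of which 2 are filled, Tbx1 at -0.73 and Nr2f2 at 1.997.

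The 2 steps between stages were also tested one at a time. Control GD9:00 embryos, set against control GD8:15 embryos, showed a fall of Actc1 (-1.91 ± 0.53 SE, a ratio of GD8:15 to GD9:00 of 3.77; limma adjusted p = 0.0213), while Myl7 differed by -1.45 ± 0.52, Gata6 by -0.49 ± 0.17, Nkx2-5 by -0.42 ± 0.23 and Tnni1 by 0.29 ± 0.20 (SE; adjusted p = 0.0664, 0.0551, 0.227 and 0.336). Thus 1 of the 5 genes was called lower, where 6.83% of all probes were. The Actc1 call was lost without control GD8:15 replicate 1, control GD9:00 replicate 1 or control GD9:00 replicate 3 (adjusted p = 0.0673, 0.0634 and 0.0547). It was also lost with the series as a block (adjusted p = 0.571), where fewer arrays stand behind the contrast. Control GD9:12 embryos, set against control GD9:00 embryos, showed a fall of Myl7 (-2.89 ± 0.56 SE, a ratio of GD9:00 to GD9:12 of 7.42; adjusted p = 0.0031), with 3 of 3 GD9:12 arrays below all GD9:00 arrays, as for 15.5% of all probes. Actc1 differed by -0.85 ± 0.57, Nkx2-5 by -0.49 ± 0.25, Gata6 by -0.33 ± 0.18 and Tnni1 by -0.41 ± 0.22 (SE; adjusted p = 0.366, 0.222, 0.260 and 0.235). Here 1 of the 5 genes was called lower, against 7.44% of all probes. The 3 stage comparisons and the arsenic comparisons share control arrays, so their values are not independent of each other.

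The other cardiac genes were also compared between control GD9:12 and control GD8:15 embryos. Of 31 tested, 23 were lower and 8 higher, a median difference of -0.22, where 51.8% of all probes were lower. Of them 1 was called lower and 1 higher, where 3.94% of all probes were called lower and 3.77% higher. Tbx1, a factor of the pharynx and of the progenitors that lengthen the heart tube, fell by 0.73 (limma adjusted p = 0.0101), and Nr2f2, a factor of atrial and venous cells and of other tissues, rose by 1.997 (adjusted p = 0.0142). Thick filament genes were lower in 3 of 3 cases, by 0.23 for Myl3 and 0.38 for Myl4, and thin filament genes in 3 of 3, with skeletal actin Acta1 at -0.49 ± 0.15 (SE; adjusted p = 0.0571). Z-disc and intercalated disc genes were lower in 6 of 7 cases and calcium handling genes in 4 of 6, with Ryr2 at -0.38 and the junctional protein Jph2 at -0.23 (adjusted p = 0.0910 and 0.0756). Myocd differed by -0.42 (adjusted p = 0.0704). The other cardiac transcription factors went both ways. Hand1 differed by -0.61 and Srf by -0.24, while Gata5 differed by 0.30 and Gata4 by 0.28 (limma adjusted p from 0.148 to 0.698). Of the dim cardiac genes 14 were lower and 6 higher, with Tnnt2 at 7.05 in control GD9:12 and 7.33 in control GD8:15, and 0 were called in a fit without the filter.

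Genes of the other muscle lists and markers of neighbouring tissues moved over the same interval, and their part in the cardiac values was not tested. The counts of calls stand beside the 3.94% of all probes called lower and the 3.77% called higher. Of 5 smooth muscle genes 2 fell, Cnn1 by 2.10 and smooth muscle actin Acta2 by 0.72 (limma adjusted p = 0.0012 and 0.0060), and the summed intensity of the list ran from 1892 to 2747 at GD9:12 and from 2362 to 4740 at GD8:15. Of 6 muscle energy enzymes 3 fell, Pgam2 by 1.28, muscle enolase Eno3 by 1.45 and the fatty acid binding protein Fabp3 by 0.66 (adjusted p = 0.0007, 0.0063 and 0.0455). Of 8 skeletal muscle genes 0 were called, 4 of them lower. Head and paraxial mesoderm had 2 of 9 genes called lower, Prrx2 and Tcf15 (-2.44 and -0.66), endoderm 1 of 13, Krt18 (-1.53), and surface ectoderm 1 of 5 lower, Krt19 (-1.04), and 1 higher, Cldn4 (0.73). Endothelium and blood had 0 of 8 and 0 of 6 called. Of 15 neural tube genes 4 rose, among them Zic1 by 3.00, En2 by 1.85 and Fabp7 by 1.37. The 1 that fell was the progenitor factor Sox2, which averaged 8.22 in control GD9:12 and 9.34 in control GD8:15 embryos. The array means of the list ran from 9.15 to 9.16 at GD9:12 and from 8.61 to 8.71 at GD8:15. The 2 groups did not overlap in that mean, which was higher at GD9:12, where Myl7 and Actc1 were lower.

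Whether arrays of one group that were high for one cardiac gene were high for another was asked with the group means subtracted, over 22 arrays and 10 gene pairs. Myl7 and Actc1 correlated at Pearson r = 0.709 (permutation within groups, two-sided p = 0.00096; adjusted over the 10 pairs, p = 0.0096) and Spearman rho = 0.706 (p = 0.00017; adjusted p = 0.0017). Without the 2 arrays farthest from the Myl7 median, r was 0.570. Within the 14 arrays of series C r was 0.794, and within the 6 arrays of series D it was 0.565, given as descriptions. The adjusted p was 0.0985 without arsenic GD9:00 replicate 3, with r at 0.682, and under 0.05 without any other array. No other pair passed: Myl7 with Gata6 had r = 0.498, Actc1 with Gata6 0.418 and Actc1 with Tnni1 0.506 (permutation adjusted p = 0.301, 0.301 and 0.372). The r of Actc1 with Tnni1 was 0.046 without the 2 farthest arrays. The 4 pairs that include Nkx2-5 had r between -0.252 and 0.021.

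**Figure D4:**
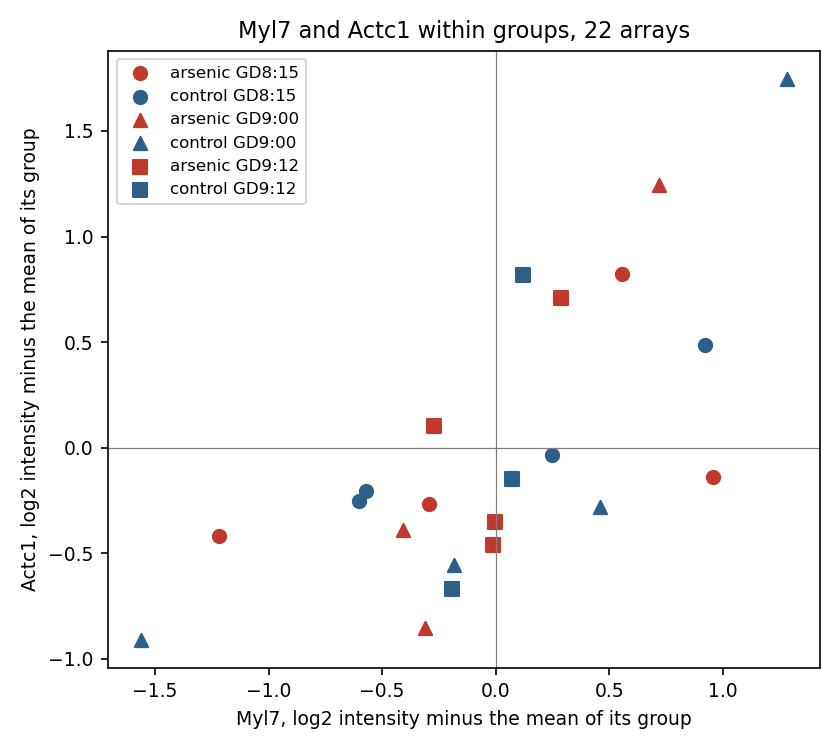
Log2 intensity of Actc1 against that of Myl7, each minus the mean of its group, for 22 arrays; colour gives arsenic (red) or control (blue) and shape gives the stage. The points run from low for both genes to high for both (Pearson r = 0.709), and control GD9:00 replicates 1 and 4 lie at the ends.

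The genes whose group-centred values were most like the mean of the 5 were, over 22 arrays and 7160 genes compared, Lrg1 (r = 0.855), Ddx6 (0.796), Cfap206 (0.775), Ces1e (0.773), Lta (0.772), Kcnj4 (0.766), Chrdl1 (0.741), Ppp1r3a (0.740), Smarcd3 (0.737) and Fndc4 (0.734). The 95th percentile of r over all genes was 0.512 and the median 0.001. Of these 10, 5 lie close together in probe number, and 2, Ddx6 and Cfap206, had a value in a run of dim probes and stood at r = 0.715 and 0.695 with it masked. Among the 31 other cardiac genes, 2 were above the 95th percentile, phospholamban (Pln, r = 0.604) and the ventricular light chain Myl3 (r = 0.513), and the median was 0.169. Pln, as probe 9717, lies in the same stretch of probe numbers as those 5. Myl3 was only just above the percentile, at 0.5126 against 0.5120. All points share arrays, and the correlations are descriptions. The mean of the 5 was taken without scaling, so Myl7 and Actc1, which spread most within groups, weigh most in it.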

How the data were processed

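RNA of the anterior neural tube was measured on 22 arrays, grouped by arm and stage from the sample titles. The values are the deposited linear intensity of each probe, whose mean over each array was 600 for GD8:15, 500 for GD9:00 and 1000 for GD9:12. These means were read from the values, and a scaling by the authors to them is inferred. Scanner, background correction and scaling method are not given in the sources used here. The 838 values of 2 or less were taken as placeholders and set to missing. Values were taken to log2 and quantile normalised, since array medians differed by up to 1.24 on that scale. A probe was tested if every group had 2 or more values and its mean was above the lowest 25% (7833). Symbols come from the platform annotation (9378 probes with 1 symbol, 8 with several, 1114 with none). Of these, 9323 matched a RefSeq gene ID, with 0 symbols changed.

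limma 3.58.1 in R 4.3.3 fitted 6 group means to all arrays, with Benjamini-Hochberg adjustment over the tested probes of each of 9 contrasts and a threshold of 0.05. Folds are ratios on the normalised scale. Group-centred correlations used 1e+05 permutations within groups, whose smallest possible p is 1e-05. Python 3.11.15 and matplotlib 3.10.9 drew the figures. The fit and the correlation were tested on simulated data. The number of arrays limits the precision, and the median SE of an arsenic difference was 0.184 to 0.198. Promoters were read from RefSeq tables of GRCm38.p6 and hold 250 bases before the start.

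The members and the 16 other gene lists were chosen with earlier results of these data known. The text names the members, up to 3 genes of lowest p per list in each arsenic contrast and in control GD9:12 minus GD8:15, the 10 genes most like the members, and Folr2. The dim cardiac genes and Mybpc3, Pln, Myl3 and other list members named beyond this rule were chosen after their values were seen. Alternatives to each choice, among them the scaling of the authors, masked runs of dim probes, array weights, the title code series as a block, and each array left out, are covered in the closing section.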

Additional observations from a re-analysis of the deposited data

Results flagged for a closer look

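In groups of 4 arrays, an array was looked at again when its gap to the nearest other array took up most of the range of the group (Dixon's test at the 95% level). Of 20 groups checked over the 5 genes, 2 held such an array, and chance gives about 1 in 20.

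Nkx2-5 stood at 7.83 on arsenic GD9:12 replicate 4, against 7.09 on the nearest and 7.01 on the farthest array of its group, a gap of 0.906 of the range. The same array was also the highest of its group for Myl7, at 9.15 against 8.86 on the next array, and for Actc1, at 10.93 against 10.32, each a gap of 0.520 of the range, and for Folr2, at 7.47 against 7.08. For Tnni1 it read 7.40, within the range of its group. Without it, the Nkx2-5 difference between arsenic and control at GD9:12 was -0.11, against 0.08 with it.

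Gata6 stood at 8.03 on arsenic GD8:15 replicate 1, against 7.46 on the nearest and 7.38 on the farthest array of its group, a gap of 0.881 of the range. That array also had the highest Actc1 value of its group, 12.53. Without it, the Gata6 difference between arsenic and control at GD8:15 was -0.70, against -0.55 with it. No cause was tested for either array.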

How the results depend on the processing

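Over 10 settings and each array left out, 1409 values were recomputed. Of these, 1297 kept their direction and side of the threshold, 54 moved, 30 changed sign, 16 lost and 12 gained a call; no member was called for arsenic in any of them. Under the authors' own scaling the median over all probes shifted by 0.21, 0.43 and 0.02 in the arsenic contrasts by stage, and by -0.49, 0.79 and 0.27 in control GD9:00 minus GD8:15, GD9:12 minus GD9:00 and GD9:12 minus GD8:15. A stage difference whose sign turned under it lay on the same side of this shift as before. The cause of the changes below was not tested.

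Control GD9:00 minus GD8:15 called 1 member, and 4 under the scaling of the authors, 2 with dim runs masked, with trended robust eBayes or with array weights, 0 with the series block or with only the groups compared in the fit, and 0 to 2 with an array left out. Control GD9:12 minus GD9:00 called 1, and 3 with array weights and 1 to 2 with an array left out. Control GD9:12 minus GD8:15 called 4, and 1 with the series block. Of the correlated pairs 1 passed, and 0 to 1 with an array left out.

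Signs turned under the scaling of the authors for Tnni1 in control GD9:00 minus GD8:15 (-0.23) and GD9:12 minus GD8:15 (0.038), for Actc1 (0.27), Nkx2-5 (0.11), Gata6 (0.30) and Tnni1 (0.26) in control GD9:12 minus GD9:00, and for the correlation of Nkx2-5 with Tnni1 (0.146). They turned with array weights for Gata6 at GD9:00 (-0.23), Nkx2-5 at GD9:12 (-0.0026), Tnni1 at GD9:12 (-0.018) and the Gata6 effect at GD9:12 minus that at GD9:00 (0.12). Tnni1 at GD9:12 was -0.00067 with placeholders kept and -0.012 with the series block or series C alone. With an array left out, Gata6 at GD9:00 ran from -0.063 to 0.23, and at GD9:12 Actc1 ran from -0.64 to 0.10, Nkx2-5 from -0.11 to 0.16 and Tnni1 from -0.032 to 0.023. The correlations ran from -0.345 to 0.275 for Actc1 with Nkx2-5, -0.162 to 0.233 for Myl7 with Nkx2-5, -0.046 to 0.516 for Myl7 with Tnni1, -0.128 to 0.294 for Nkx2-5 with Gata6 and -0.418 to 0.127 for Nkx2-5 with Tnni1.

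Counts of all probes called moved too. Array weights gave 4, 110 and 1 in the arsenic contrasts by stage, where 0 were called. The series block left 35 of 1174 in control GD9:00 minus GD8:15, 516 of 883 in GD9:12 minus GD9:00 and 47 of 604 in GD9:12 minus GD8:15, where the scaling of the authors gave 2743, 5609 and 1421. No paired analysis was possible because the labels give no replicate numbers, and those used here only follow the order of the samples.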
